A study of Homo sapiens with 28 samples.

Results

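Hep3B tumours grown in ovo were compared with Hep3B cultures grown in vitro, across all genes of a targeted expression panel. Hep3B is an established human hepatoma line, derived from a hepatocellular carcinoma. The 4 tumours had been grown from Hep3B cells placed on the chorioallantoic membrane of fertilised white leghorn eggs at embryonic day 9 and were taken off at day 18, whereas the 3 cultures were plain in vitro cultures with no other treatment. These 7 libraries were chosen by cell line from the 28 of the series; the other 21 hold HepG2, HuH7 and PLC/PRF/5, each as 4 tumours and 3 cultures, and served to estimate the spread and to set the Hep3B response beside theirs. The labels number the replicates but do not say that each came from its own egg or its own culture, so a p-value here speaks only of the spread from library to library, and that spread may be technical. RNA was extracted with a larger column kit from tumours than from cultures, and the kit and the growth condition cannot be told apart. Each library was built from 500 ng of total RNA with amplicons designed on human transcripts, 1 per gene; a tumour on the membrane also holds chick cells, and RNA of the host was not analysed here. In bulk RNA, fewer cells of a type and less RNA per cell cannot be told apart.

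The chorioallantoic membrane is a vascular respiratory membrane of the chick embryo, on which grafted tumour cells grow as a perfused, 3-dimensional nodule in place of a layer on plastic. Hepatocytes make most plasma proteins, turn ammonia into urea or glutamine, and secrete cholesterol into bile, functions that depend on a network of liver transcription factors such as HNF4A and that cultured liver cells commonly lose. Hepatoma lines also keep features of fetal liver, among them AFP and the imprinted growth factor IGF2, which shares its chromosomal domain with the non-coding RNA gene H19.

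The amplicons on which several results turn are shown here because their position decides what their reads stand for. All were placed on GRCh38 by exact match to GENCODE 29 transcripts. The HOTS amplicon (chr11:1996109-1996181) lies wholly inside a non-coding exon of H19, and HOTS is read from the opposite strand of H19, so without strand information reads of HOTS and of H19 cannot be told apart. The IGF2 amplicon (chr11:2133191-2133634, minus strand) covers 151 bases of 2 coding exons that the INS-IGF2 read-through transcripts share. The SERPINC1 amplicon (chr1:173909696-173909823, minus strand) lies in 1 exon. Capitals mark the bases next to an exon junction, and the HOTS and SERPINC1 amplicons cross none.
HOTS: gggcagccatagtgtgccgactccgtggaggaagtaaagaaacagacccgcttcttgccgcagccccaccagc
IGF2: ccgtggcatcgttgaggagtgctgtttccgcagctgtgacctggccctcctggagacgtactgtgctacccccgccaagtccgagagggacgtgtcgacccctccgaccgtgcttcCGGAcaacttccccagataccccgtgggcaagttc
SERPINC1: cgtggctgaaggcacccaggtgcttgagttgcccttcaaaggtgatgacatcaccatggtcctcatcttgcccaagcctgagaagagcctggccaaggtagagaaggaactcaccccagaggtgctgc

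Depth was 6085750 to 15086465 reads in the tumours and 6607449 to 8016583 reads in the cultures. Levels are given as CPM, reads scaled to a fixed total, after TMM scaling, which brings most genes of 2 libraries to the same level. They compare libraries for 1 gene, not genes with each other. The factors of the tumours (0.447 to 0.711) lay below those of the cultures (1.09 to 1.15), and the 10 most abundant genes took 31.5% to 41.0% of tumour reads and 17.8% to 18.6% of culture reads. On total counts alone the median log2 fold change of all genes shifted by -0.69. Of 13100 genes tested, 6814 (52%) were called at an adjusted p under 0.05, 3220 higher in the tumours (24.6%) and 3594 lower (27.4%), and on total counts alone the split was 1205 higher and 6820 lower. Each count of called list members below is to be read beside these shares of all genes, on the same scaling. The median log2 fold change over all genes tested was -0.05. The fold changes also moved with amplicon design (Spearman's rho across genes 0.46 with GC content and -0.48 with amplicon length), and with those trends removed 1771 of the 3220 higher calls and 1563 of the 3594 lower calls were kept. Tumour libraries agreed less well with each other (correlation of log2 levels 0.923 to 0.980) than those of the cultures (0.995 to 0.996). Olfactory receptor amplicons, which liver cells are not known to use, were read in 12.02%, 16.1%, 34.5% and 16.4% of cases in tumours 1 to 4 and in 3.58% to 3.84% in cultures; the part of this background in single results was not tested.

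Genes that other lines of the series read strongly and Hep3B cultures lack were read at a low level in the Hep3B tumours. 21 genes were strongly read in all 7 HuH7 libraries and below 1 CPM in each Hep3B culture, and their median level in Hep3B tumours 1 to 4 was 0.962%, 1.90%, 0.841% and 0.202% of the HuH7 in ovo mean. For 23 HepG2 genes chosen the same way the medians were 1.34%, 1.44%, 0.681% and 0.481% of the HepG2 in ovo mean, and for 62 genes of PLC/PRF/5 they were 0.0679%, 0.0841%, 0.0712% and 0%. The HuH7 and HepG2 lists share 6 genes, and without these the medians were 0.951%, 1.90%, 0.841% and 0.219% for HuH7 and 0.915%, 0.948%, 0.634% and 0.692% for HepG2. Tumour 2 was the highest and tumour 4 the lowest on the full lists of both. The HepG2 list also holds ITIH3, which is described below as higher in the tumours, and from which cells these reads came was not tested. Wherever the HuH7 share would make up 10% or more of the tumour level of a gene named below, it is given beside the gene as its HuH7 share, and with that share subtracted every call on these genes but that of MYH9 was kept. SPINK1, MT1F and MYH9 are themselves among the 21 genes that set the share, and the share set by the other 20 would give 48.7%, 70.2% and 152% of their tumour levels. Subtracting the HepG2 share in its place, an alternative chosen after seeing the data, lost no call on a gene named here.

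**Figure D1:**
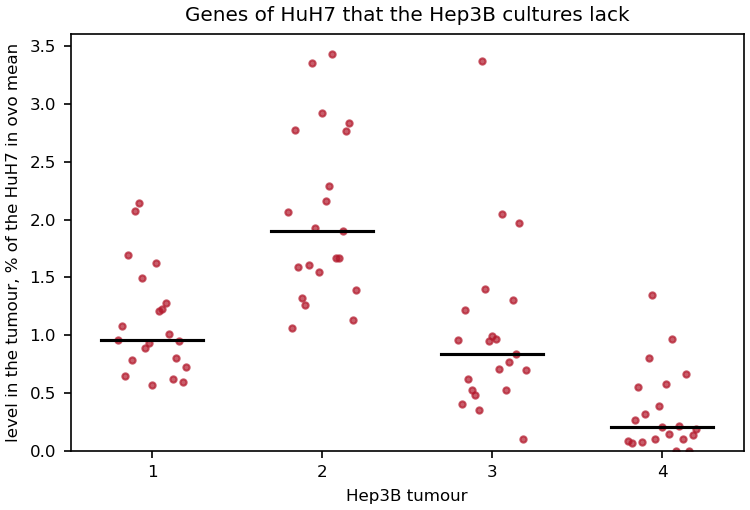
Level of 21 HuH7 genes in each of the 4 Hep3B tumours, as a percentage of their mean level in HuH7 tumours; each point is a gene and each bar the median over the genes. The medians are 0.962%, 1.90%, 0.841% and 0.202%.

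Liver markers were strongly read in the tumours, whereas most markers of blood vessels and blood cells stayed below 1 CPM in all 7 libraries. Of 14 hepatocyte lineage markers 10 were called higher and 1 lower (5 and 2 on total counts alone), with a summed level of 192973 to 311409 CPM in tumours and 31847 to 33906 CPM in cultures. The largest part of the tumour sum came from SERPINA1, at 109377, 122162, 155978 and 75989 CPM in tumours, against 7319, 7770 and 7518 CPM in cultures. ALB and FOXA2, also on this list, did not rise. Of 13 endothelial markers 10 stayed below 1 CPM in all 7 libraries, KDR, TEK and ROBO4 were at 0 throughout, and the summed level of 113 to 256 CPM in tumours, against 50.8 to 66.3 CPM in cultures, came mostly from EGFL7, at 180.0, 244, 240.2 and 101 CPM in tumours, against 46.4, 61.1 and 60.4 CPM in cultures. Of 5 endothelial markers tested EGFL7 and PECAM1, an adhesion molecule of endothelium and platelets, were called higher, and PECAM1 had 10.8, 7.55, 7.25 and 10.6 CPM in tumours, against 1.45, 1.77 and 1.34 CPM in cultures. The EGFL7 call was lost on total counts, with the amplicon GC and length trends removed and without tumours 2 and 3. Of 12 leukocyte markers 8 stayed below 1 CPM in all 7 libraries, with CD3E and MS4A1 at 0 throughout, and their sum of 128 to 145 CPM in tumours and 63.2 to 73.6 CPM in cultures came mostly from CD74, the MHC class II invariant chain. CD74 had 101, 126, 123 and 93.6 CPM in tumours, against 49.9, 59.05 and 60.1 CPM in cultures, and CD74 and CD79A were the members called higher of 7 tested, both calls being lost on total counts (CD74 at -0.0062) and with the trends removed (CD74 at -0.23). Of 12 fibroblast and smooth muscle markers 7 stayed below 1 CPM, with DCN and MYH11 at 0 throughout, and their sum of 2077 to 4441 CPM in tumours and 2111 to 2272 CPM in cultures came mostly from FBLN1. PDGFRA, a receptor of platelet-derived growth factor, had 255, 478, 498 and 258 CPM in tumours, against 88.7, 94.5 and 90.6 CPM in cultures and was called higher, as was PDGFRB (0.73, but -0.15 on total counts), while LUM was called lower (-1.77, with a HuH7 share of 136% of its low tumour level; this call was lost with the trends removed). The PDGFRB call was also lost when tumour 1, tumour 4, culture 2 or culture 3 was left out, and the CD79A call when tumour 1, tumour 2, tumour 3 or any culture was. The part of such cells in the results was not tested. ALB, the albumin gene, had 69.9, 40.5, 21.2 and 102 CPM in tumours, against 79.7, 71.2 and 78.1 CPM in cultures, and its groups overlapped.

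At the 11p15 growth-control domain the IGF2 and HOTS amplicons moved in opposite directions. IGF2, a fetal growth factor of the insulin family, took 19.97%, 18.5%, 12.5% and 12.1% of all reads in tumours 1 to 4, against 6.34%, 7.01% and 6.54% in cultures. Every tumour lay above every culture, with means of 15.8% ± 4.04 (SD, n = 4) and 6.63% ± 0.346 (SD, n = 3), a difference of 9.13 percentage points. An exact two-sided permutation test gave p = 0.0571, the smallest that 35 splits allow. On the scaled level IGF2 had 320837, 353112, 280134 and 170144 CPM in tumours, against 55268, 64519.8 and 58355 CPM in cultures, a log2 fold change of 2.19 ± 0.54 (SE; adjusted p = 0.0018), which was not called on total counts alone or with the Hep3B libraries fitted alone. HOTS, the amplicon inside the H19 exon, had 2.34, 6.3, 7.77 and 5.55 CPM in tumours, against 1714, 1942 and 1776 CPM in cultures. It was 330.0-fold lower in tumours by the means (log2 fold change -8.21 ± 0.57, adjusted p = 3.6e-11). HOTS is among the genes chosen below for groups that did not overlap.

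**Figure D2:**
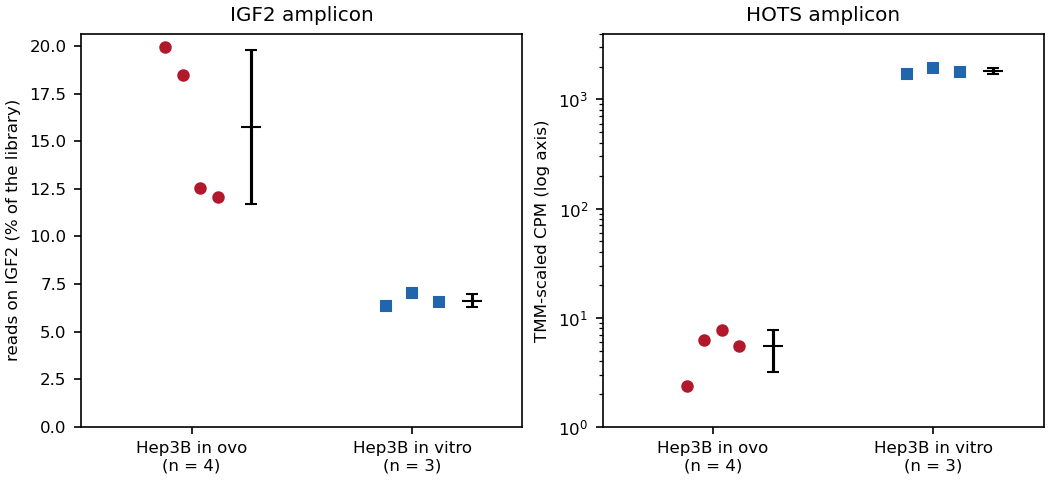
IGF2 as a percentage of all reads of a library (left) and HOTS as TMM-scaled CPM on a log axis (right) in 4 Hep3B tumours and 3 Hep3B cultures; points are libraries, and bars the mean with its SD. IGF2 lies at 12.1% to 19.97% in tumours and 6.34% to 7.01% in cultures, and HOTS at 2.34 to 7.77 CPM in tumours and 1714 to 1942 CPM in cultures.

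Of 13 other imprinted genes tested, 8 were called higher and 1 lower, with a median log2 fold change of 1.31; on total counts alone 6 were higher and 5 lower, with a median of 0.35. DLK1, a membrane protein of fetal hepatoblasts, had 11649, 19186, 25158 and 11139 CPM in tumours, against 1090.0, 1227 and 1091 CPM in cultures (log2 fold change 3.80, adjusted p = 2.5e-11). PEG3, a paternally expressed zinc finger gene, had 508, 558, 732 and 486 CPM in tumours, against 34.4, 43.4 and 36.6 CPM in cultures, and ZIM2, its neighbour, had 60.1, 29.2, 11.4 and 39.3 CPM in tumours, against 5.67, 4.91 and 4.56 CPM in cultures. Both were higher in every tumour, with ZIM2 spread over a wider range among tumours than PEG3. PEG10, a retrotransposon-derived gene often raised in liver cancer, had 8930.4, 11073, 19485 and 8157 CPM in tumours, against 2099, 2295 and 2248 CPM in cultures (log2 fold change 2.34). Within 11p15, SLC22A18, a transporter gene, had 80.9, 88.6, 123 and 85.1 CPM in tumours, against 18.5, 22.5 and 19.03 CPM in cultures, and CDKN1C, a cyclin-dependent kinase inhibitor, had 171, 223, 304 and 133 CPM in tumours, against 63.99, 63.3 and 65.7 CPM in cultures. SNRPN, of the Prader-Willi region, was higher by 1.31 on the log2 scale. The calls of CDKN1C and SNRPN were lost on total counts alone. PLAGL1, an imprinted zinc finger factor, was the called exception, with 7.35, 4.03, 1.04 and 5.32 CPM in tumours, against 15.8, 14.7 and 17.03 CPM in cultures.

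The receptors that bind IGF2 did not move together. INSR, the insulin receptor, had 599, 1064, 1727 and 868 CPM in tumours, against 301, 317 and 301 CPM in cultures (log2 fold change 1.69, adjusted p = 1.6e-05). IGF2R, which clears IGF2 into lysosomes, was higher by 1.06, a call lost on total counts, with the GC and length trends removed, with Hep3B fitted alone and without tumours 2 and 3. IGF1R, the signalling receptor, had 47.3, 25.2, 13.98 and 29.6 CPM in tumours, against 61.6, 62.2 and 60.3 CPM in cultures, lower in each tumour, a call lost with the GC and length trends removed and without tumours 2 and 3. GHR, the growth hormone receptor, had 40.04, 30.2, 35.2 and 39.1 CPM in tumours, against 110.3, 110.0 and 108 CPM in cultures. The IGF axis as a list had 9 members called higher and 3 lower of 18, with a median of 0.56 that turned to -0.18 on total counts alone. With the GC and length trends removed 4 were higher and 3 lower.

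Among genes averaging at least 10 CPM whose groups did not overlap (55.6% of genes tested did not), the 12 highest fold changes were those of secreted liver proteins (PGLYRP2, SERPINC1, A1BG, AFP, PLG, ITIH1 and ITIH3), amino acid enzymes (UROC1 and PRODH2), a sterol transporter (ABCG8) and mucosal proteins (AGR2 and MUC5B). The 12 lowest included the HOTS amplicon, peptide hormones (CGA and NTS), signalling antagonists and ligands (CER1 and INHBB) and matrix genes (LOXL4, IGFBP7, FBN2 and THBS1). The plot of these genes shows that all rising ones but AFP and A1BG lay below 2 CPM in every culture, where 3 reads corresponded to 0.334 to 0.409 CPM.

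**Figure D3:**
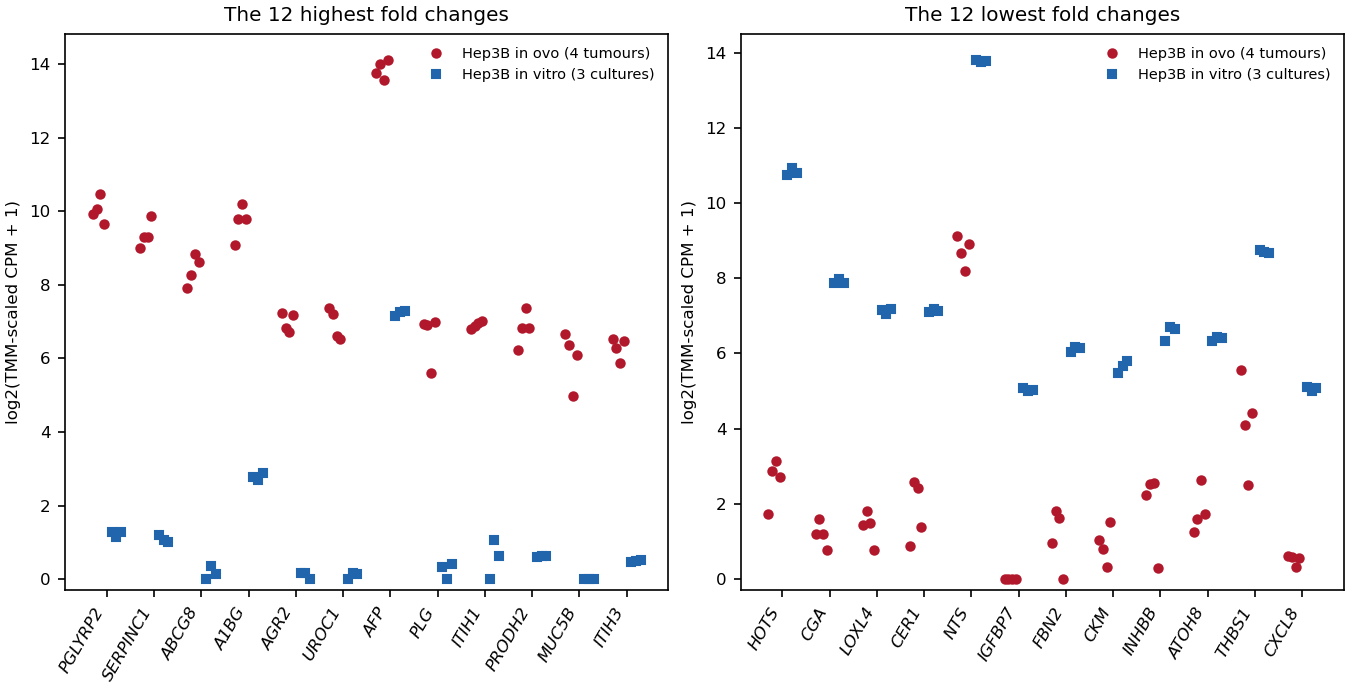
TMM-scaled levels, as log2(CPM + 1), of the 12 genes with the highest (left) and the 12 with the lowest (right) fold changes, taken from called genes whose mean level was 10 CPM or more; points are libraries. The genes were also chosen so that tumours and cultures did not overlap, and most rising genes lie near 0 in cultures.

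Clotting factors and their inhibitors were mostly higher, with 15 of 21 called higher, 2 lower and a median log2 fold change of 1.59. Of all genes tested, 24.6% were called higher and 27.4% lower. On total counts alone 9 members were higher and 4 lower, with a median of 0.66, beside 1205 higher and 6820 lower of all 13100 genes. SERPINC1, antithrombin, whose amplicon is given above, had 514, 625, 628 and 928 CPM in tumours, against 1.32, 1.09 and 1.002 CPM in cultures, a log2 fold change of 8.27 ± 0.22 (SE; adjusted p = 1.3e-18). PLG, the plasmin precursor, had 122, 118, 47.4 and 126 CPM in tumours, against 0.264, 0 and 0.334 CPM in cultures, and tumour 3 was the lowest tumour. SERPIND1, heparin cofactor II, had 5046, 10243, 19706 and 5119.6 CPM in tumours, against 717, 734 and 729 CPM in cultures, with tumour 3 the highest. The inhibitor and cofactor pair SERPINA10 and PROZ, which together restrain factor Xa, rose by 2.50 and 2.15 on the log2 scale. Of the proteases, F2, prothrombin, had 2654, 2528, 1440.4 and 2693 CPM in tumours, against 367, 370.1 and 366 CPM in cultures, with tumour 3 apart from the other tumours. F7, which starts the tissue factor pathway, F11 and F12, both of the contact pathway, rose by 2.23, 2.07 and 2.76, and in each the groups did not overlap. PROS1, protein S, the cofactor of activated protein C, went the other way with 17.3, 12.6, 9.06 and 14.6 CPM in tumours, against 37.5, 37.2 and 37.5 CPM in cultures, a call lost without tumours 2 and 3. With the GC and length trends removed, 14 members were higher and 2 lower.

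Carrier proteins of plasma showed 8 of 15 members called higher and none lower, with a median of 0.77 that became -0.20 on total counts alone. A1BG, a plasma glycoprotein of the immunoglobulin superfamily, had 539, 878, 1164 and 889.5 CPM in tumours, against 5.8, 5.45 and 6.34 CPM in cultures (log2 fold change 6.93 ± 0.22, adjusted p = 2.3e-17). Its amplicon also matches an overlapping transcript, so reads of both are counted together. SERPINA6, the cortisol carrier, had 3024, 4000.3, 5724 and 2839.9 CPM in tumours, against 255, 298 and 262 CPM in cultures, and TF, the iron carrier transferrin, had 67377, 91267, 99213 and 53048 CPM in tumours, against 9834, 10629.8 and 10229 CPM in cultures. AHSG, fetuin-A, had 19356, 22459.5, 19443 and 25965 CPM in tumours, against 4725, 4962 and 5079 CPM in cultures. A1BG was chosen among genes whose groups did not overlap, as 55.6% of genes tested did not. In SERPINA6, TF and AHSG every tumour was also above every culture. The heavy chains of inter-alpha-trypsin inhibitor, which bind hyaluronan, were well read in tumours and barely read in cultures. ITIH1 had 109.7, 118, 125 and 129 CPM in tumours, against 0, 1.09 and 0.556 CPM in cultures (log2 fold change 6.35, adjusted p = 2.2e-16), and ITIH3 had 91.3, 77.3, 57.7 and 88.1 CPM in tumours, against 0.396, 0.409 and 0.445 CPM in cultures (log2 fold change 5.79, adjusted p = 1.4e-14). PGLYRP2, a secreted amidase that cuts bacterial peptidoglycan, had 969.8, 1077, 1419 and 806 CPM in tumours, against 1.45, 1.23 and 1.45 CPM in cultures (log2 fold change 8.78 ± 0.31).

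Complement was split: of 18 components and regulators 10 were called higher and 6 lower, with a median of 0.66 that turned to -0.15 on total counts alone. CFB, the protease of the alternative pathway, had 104, 86.1, 55.7 and 69.6 CPM in tumours, against 13.3, 12 and 14.1 CPM in cultures. C6 and C8G, parts of the membrane attack complex, rose by 1.70 and 2.17. C3, the central component, had 1363, 1614, 1575 and 2112 CPM in tumours, against 6131, 6481 and 6263 CPM in cultures, lower in each tumour (log2 fold change -1.93, adjusted p = 0.0037). C5, which starts the attack complex, and CFI, the protease that inactivates C3b, fell by 2.25 and 2.28 on the log2 scale. The CFI call was lost with the GC and length trends removed and without tumours 2 and 3.

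Apolipoproteins had 7 of 17 members called higher and none lower, with a median of 0.64; on total counts alone 5 were higher and 3 lower, with a median of 0.0061. APOM, which carries sphingosine-1-phosphate on HDL, had 1364, 1761, 2133 and 2049 CPM in tumours, against 198, 225 and 210.3 CPM in cultures (log2 fold change 3.09). APOA5, an activator of triglyceride clearance, had 25.9, 19.9, 19.9 and 15.7 CPM in tumours, against 0.792, 0.955 and 0.89 CPM in cultures. APOC3, an inhibitor of that clearance, had 303, 430.4, 578 and 347 CPM in tumours, against 72.96, 62.5 and 67.9 CPM in cultures. Both rose in every tumour. Among lipid-handling genes, FABP1, the liver fatty acid binding protein, had 1059.5, 2297, 2431 and 3424 CPM in tumours, against 86.1, 93.8 and 97.4 CPM in cultures, lowest in tumour 1 and highest in tumour 4. CIDEB, a lipid droplet protein that lipidates VLDL, had 201, 251, 341 and 221 CPM in tumours, against 22.7, 25.5 and 22.3 CPM in cultures. Genes of fatty acid synthesis and lipid storage showed no common direction, with 6 of 21 higher and 6 lower (3 and 11 on total counts alone). The shares over all genes tested were 24.6% higher and 27.4% lower.

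Nitrogen metabolism rose in its glutamine arm as well as in the urea cycle. Of 9 members tested 6 were called higher and 1 lower, with a median of 3.00 (5, 2 and 2.02 on total counts alone). GLUL, glutamine synthetase, which fixes ammonia next to the central vein, had 5083, 7896, 11128 and 5065 CPM in tumours, against 540.2, 588 and 555 CPM in cultures (log2 fold change 3.62 ± 0.29, adjusted p = 4.7e-10). GLUD1, glutamate dehydrogenase, had 5943, 7710.0, 11000.2 and 7087 CPM in tumours, against 928, 1013 and 964 CPM in cultures. NAGS, which makes the activator of carbamoyl phosphate synthetase, had 17.3, 31.5, 62.6 and 24.5 CPM in tumours, against 1.85, 2.59 and 1.67 CPM in cultures. Tumour 3 was the highest tumour in all 3 genes. The ornithine carrier SLC25A15 was called lower (-0.79), and ASS1 and GLS2 were not called.

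Amino acid breakdown had 11 of 16 members called higher and none lower, with a median of 1.27 (7, 1 and 0.64 on total counts alone). AGXT, which detoxifies glyoxylate in peroxisomes, had 651, 729, 667 and 672 CPM in tumours, against 24.9, 27.7 and 26.5 CPM in cultures; the tumours lay within a narrow range (log2 fold change 4.64 ± 0.25, adjusted p = 4.1e-13). Histidine is degraded by HAL and then UROC1. HAL had 489, 404, 260.2 and 493 CPM in tumours, against 85.9, 95.3 and 94.03 CPM in cultures, and UROC1, urocanate hydratase, had 163, 146, 96.3 and 90.8 CPM in tumours, against 0, 0.136 and 0.111 CPM in cultures. UROC1 had 2 reads in all cultures together, and the ratio of its reads was 1595 (95% interval 441 to 13179, counting error only). PRODH starts the breakdown of proline and PRODH2 that of hydroxyproline. PRODH had 28.1, 86.9, 122 and 47.2 CPM in tumours, against 7.12, 6.68 and 8.01 CPM in cultures, and PRODH2 had 73.7, 112, 166 and 113 CPM in tumours, against 0.528, 0.545 and 0.556 CPM in cultures (log2 fold change 6.19 ± 0.25). UROC1 and PRODH2, which are not on the list counted above, were chosen among genes whose groups did not overlap. In HAL and PRODH every tumour was also above every culture.

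In sterol export both genes of a pair were higher in the tumours. ABCG8 and ABCG5 form the heterodimer that pumps cholesterol and plant sterols into bile, and their genes stand head to head on chromosome 2. ABCG8 had 241, 309, 458 and 394 CPM in tumours, against 0, 0.273 and 0.111 CPM in cultures, and ABCG5 had 29.9, 21.4, 13.2 and 33.1 CPM in tumours, against 0.132, 0.273 and 0.223 CPM in cultures. ABCG8 had 3 reads in all cultures together, and the ratio of its reads was 2575 (95% interval 881 to 12488). The log2 fold changes were 8.25 ± 0.23 and 4.32 ± 0.26. Tumour 3 was the highest tumour for ABCG8 and the lowest for ABCG5. The 131 bases between both transcription starts (chr2:43838840-43838970, plus strand, GRCh38.p14, RefSeq) are shown because they are common to both genes. They hold 1 GATA-type site, in capitals, found by a search for AGATAA and TGATAA on both strands. 7.46% of 27305 RefSeq promoters hold such a site in as many bases. The same search found no CAAGGTCA (held by 0.546% of promoters), no CAAAGTCCA or CAAAGGTCA (0.377%), no GTTAAT (3.07%), no AGGTCA (6.70%), which overlaps CAAGGTCA and CAAAGGTCA, and no CACGTG (4.22%).
ABCG5/ABCG8: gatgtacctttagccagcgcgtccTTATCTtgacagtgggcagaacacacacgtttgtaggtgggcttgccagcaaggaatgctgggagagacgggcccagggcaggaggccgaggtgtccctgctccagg
NR1H3, the oxysterol receptor known to induce this pair, had 229, 429.6, 643 and 344 CPM in tumours, against 80.1, 87.1 and 80.1 CPM in cultures (log2 fold change 2.21, adjusted p = 2.1e-06). Of 15 bile acid and anion transporters 10 were called higher and 2 lower, with a median of 0.89 (6, 4 and 0.28 on total counts alone). SLC51A, a subunit of the basolateral bile acid exporter, had 18.6, 21.4, 11.9 and 17.6 CPM in tumours, against 0.396, 0.136 and 0.445 CPM in cultures, and SLCO2B1, an uptake carrier, had 53.5, 36.8, 13.7 and 36.3 CPM in tumours, against 3.43, 2.45 and 2.89 CPM in cultures. The exporters ABCC4 and ABCG2 were called lower, at -1.60 and -0.99. Of the cytochromes P450, 10 of 17 were called higher and 1 lower, with a median of 0.94 (5, 2 and 0.36 on total counts alone). CYP4F3, which inactivates leukotriene B4, had 18.6, 39.03, 85.9 and 46.5 CPM in tumours, against 1.19, 0.682 and 0.334 CPM in cultures. CYP2J2, an arachidonic acid epoxygenase, had 100.3, 165, 246 and 141 CPM in tumours, against 18.2, 19.5 and 19.6 CPM in cultures. The member called lower was CYP1A1, at -1.97.

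Among liver transcription factors 13 of 27 were called higher and 5 lower, with a median of 0.93 that became -0.01 on total counts alone. CREB3L3, a liver factor released from the endoplasmic reticulum, had 53.4, 26.9, 20.97 and 40.2 CPM in tumours, against 0.396, 0.818 and 0.556 CPM in cultures (log2 fold change 4.44, adjusted p = 1.4e-08). PPARA, the fasting receptor of fatty acid oxidation, had 114, 107, 100.2 and 97.6 CPM in tumours, against 10.2, 10.1 and 10.2 CPM in cultures, with tumours close together. HNF4A had 2136, 2126, 3007 and 1884 CPM in tumours, against 864, 995 and 921 CPM in cultures, a call lost on total counts alone. FOXA2, a pioneer factor of endoderm, had 4.37, 0.252, 0 and 2.54 CPM in tumours, against 9.1, 9.95 and 9.46 CPM in cultures and was lower in each tumour. NR5A2, a regulator of bile acid synthesis, had 87.1, 56.7, 29.5 and 56.2 CPM in tumours, against 91.2, 102 and 90.03 CPM in cultures; its log2 fold change of -0.80 became 0.19 with the GC and length trends removed. CEBPA, a factor of hepatocyte maturity, had 607, 183, 167 and 137 CPM in tumours, against 251, 297 and 300.1 CPM in cultures and was not called, with tumour 1 above every culture and the other tumours below.

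AFP, the fetal counterpart of albumin, had 13909, 16414, 12245 and 17794 CPM in tumours, against 142, 152 and 155 CPM in cultures (log2 fold change 6.63 ± 0.25, adjusted p = 2.5e-16). ZHX2, known in mouse as a repressor of AFP after birth, was also higher, with 462, 697, 1022 and 397 CPM in tumours, against 114, 124 and 121 CPM in cultures. A search of the 250 bases before the start of rising genes on both strands for an HNF1-type site, written GTTAAT, any base, then ATT, found 1 site in AFP and 1 in PRODH2. 0.271% of RefSeq promoters (74) hold one, and none was found in PGLYRP2, ABCG8, A1BG, AGR2, UROC1, PLG, ITIH1 or ITIH3; SERPINC1 and MUC5B were not searched. Only the part of each window next to the start is shown, with the match in capitals (GRCh38.p14, RefSeq), AFP at chr4:73436071-73436220 on the plus strand and PRODH2 at chr19:35812846-35812995 on the minus strand.
AFP: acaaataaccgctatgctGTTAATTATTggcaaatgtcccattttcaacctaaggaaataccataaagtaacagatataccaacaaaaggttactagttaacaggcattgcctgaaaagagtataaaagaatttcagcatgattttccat
PRODH2: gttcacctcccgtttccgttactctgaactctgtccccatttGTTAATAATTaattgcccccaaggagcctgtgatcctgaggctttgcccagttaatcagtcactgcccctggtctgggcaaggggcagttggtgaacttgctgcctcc

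Several genes of mucus-producing epithelium were read in tumours and hardly at all in cultures. AGR2, a protein disulfide isomerase that folds mucins, had 150.1, 113, 104 and 143 CPM in tumours, against 0.132, 0.136 and 0 CPM in cultures; its cultures held 2 reads together and the ratio of its reads was 1595 (95% interval 441 to 13179). MUC5B, a gel-forming mucin, had 100.4, 81.8, 30.5 and 67.96 CPM in tumours, against 0, 0 and 0 CPM in cultures, at least 185-fold higher against a floor of 3 reads per culture. MUC6, a gastric mucin, had 166, 28.7, 17.6 and 11.8 CPM in tumours, against 1.06, 2.05 and 1.56 CPM in cultures, and tumour 1 stood far above the other tumours. SPINK1, a trypsin inhibitor, had 9.69, 32.2, 22.5 and 6.7 CPM in tumours, against 0.132, 0 and 0.111 CPM in cultures, where 2 reads in cultures gave a ratio of 186 (51.0 to 1540); its HuH7 share was 50.9%. AGR3, a relative of AGR2, had 4.37, 5.79, 6.47 and 3.47 CPM in tumours, against 0, 0 and 0 CPM in cultures. CEACAM1, an adhesion molecule, was also well read in cultures, with 153, 88.4, 39.9 and 72.1 CPM in tumours, against 34.4, 37.9 and 31.3 CPM in cultures, and its call was lost on total counts alone. Of 13 members of this list 6 were called higher and none lower, with a median of 0.45; 10 were higher with the GC and length trends removed, and 5 were higher and 1 lower on total counts alone. TFF1, TFF3, MUC1 and MUC13 were not called.
Microvillus and apical genes were read in both groups, with a summed level of 1804 to 2193 CPM in tumours and 873 to 912 CPM in cultures. Of these 8 of 17 were called higher and 4 lower, with a median of 0.19 that turned to -0.37 on total counts alone. GGT1, a glutathione-degrading ectoenzyme, had 190.1, 116, 132 and 95.9 CPM in tumours, against 4.09, 5.45 and 5.23 CPM in cultures. CDHR2, an adhesion protein of microvilli, had 38.1, 39.8, 42.97 and 56.2 CPM in tumours, against 3.3, 4.5 and 4.9 CPM in cultures. CLDN2, a pore-forming tight junction protein that is not on this list, had 46.2, 34.8, 34.4 and 26.4 CPM in tumours, against 0.66, 0.136 and 0.668 CPM in cultures (log2 fold change 4.61, adjusted p = 1.5e-11). In these 3 genes the tumours lay within a 2-fold range of each other and above all cultures.

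Metal-binding and zinc transport genes were mostly higher, with 8 of 12 called higher, none lower and a median of 2.80 (7, 1 and 1.98 on total counts alone). Metallothioneins are small cysteine-rich proteins that bind zinc and copper and are induced by metals through MTF1. MT2A had 28.5, 63.2, 109 and 23.1 CPM in tumours, against 1.72, 0.682 and 1.22 CPM in cultures (log2 fold change 4.45, adjusted p = 9.1e-07), with tumour 3 the highest. MT1G had 17.5, 13.1, 16.8 and 17.1 CPM in tumours, against 0, 0 and 0 CPM in cultures, at least 42.5-fold higher against the floor of 3 reads per culture. MT1X had 3.73, 9.32, 14.8 and 2.08 CPM in tumours, against 0.132, 0.273 and 0.334 CPM in cultures, and the groups were separate. MT1E and MT1F rose against 3 reads and 1 read in all cultures, with ratios of 86.5 (95% interval 29.2 to 422) and 217 (38.6 to 8629); their HuH7 shares were 10.7% and 73.3%. MT1A, MT1M and SLC30A10 were not called. The zinc importers SLC39A4 and SLC39A5 had 148, 66.7, 53.3 and 117 CPM in tumours, against 3.03, 4.77 and 3.89 CPM in cultures, and 166, 195, 192 and 227 CPM in tumours, against 19.5, 20.5 and 23.8 CPM in cultures. The zinc exporter SLC30A1 had 26.3, 17.1, 17.1 and 13.6 CPM in tumours, against 5.15, 4.77 and 4.34 CPM in cultures, a call lost on total counts, with the GC and length trends removed and without tumours 2 and 3.

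The promoters of MT2A and MT1X are shown because both genes were higher in every tumour and metal response elements are a known control of metallothionein genes. Whether metals had a part in these results was not tested. The 7-letter core was searched as TGCACNC or TGCGCNC on both strands, and 24.7% of RefSeq promoters hold at least 1 in the 250 bases before the start. MT2A holds 7 (0.0330% of promoters hold as many) and MT1X holds 4 (0.366%), while SLC30A1 holds 1 and SLC39A5 and SLC30A10 hold none; MT1A, MT1E, MT1F, MT1G, MT1M, SLC39A4 and SLC39A14 were not searched. The capitals mark the cores in 160 bases before each start (GRCh38.p14, RefSeq, plus strand), MT2A at chr16:56608424-56608583 and MT1X at chr16:56682310-56682469.
MT2A: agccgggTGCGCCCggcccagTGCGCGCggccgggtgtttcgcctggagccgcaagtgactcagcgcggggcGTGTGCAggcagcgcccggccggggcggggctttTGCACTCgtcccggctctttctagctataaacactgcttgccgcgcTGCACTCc
MT1X: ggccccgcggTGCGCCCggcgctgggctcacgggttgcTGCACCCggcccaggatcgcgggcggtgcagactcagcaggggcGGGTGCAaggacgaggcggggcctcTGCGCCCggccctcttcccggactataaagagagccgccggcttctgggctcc

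Peptide hormones moved in both directions, with 5 of 13 tested members higher and 3 lower (5 and 4 on total counts alone). EPO, erythropoietin, which fetal liver makes and low oxygen induces, had 129, 165, 184 and 113 CPM in tumours, against 7.39, 6.82 and 4.79 CPM in cultures (log2 fold change 4.33 ± 0.34, adjusted p = 3.2e-10). Of 21 hypoxia-inducible genes, EPO among them, 6 were higher and 4 lower (2 and 13 on total counts alone). Over all genes tested 24.6% were higher and 27.4% lower, and the part of low oxygen was not tested. THPO, thrombopoietin, a liver product that drives platelet formation, had 117, 114, 111 and 74.4 CPM in tumours, against 29.6, 30.96 and 25.7 CPM in cultures. SCG5, the chaperone of a prohormone convertase, had 43.7, 71.8, 80.5 and 65.9 CPM in tumours, against 6.6, 7.64 and 5.68 CPM in cultures. All 3 were higher in every tumour. CGA, the alpha subunit shared by glycoprotein hormones, had 1.28, 2.01, 1.29 and 0.693 CPM in tumours, against 235, 251 and 235 CPM in cultures, a 182-fold lower mean in tumours. NTS, neurotensin, had 553, 405, 291 and 478 CPM in tumours, against 14404, 13791 and 14009 CPM in cultures. INHBE, a liver activin subunit, had 89.1, 79.1, 106 and 72.1 CPM in tumours, against 353, 400.0 and 396 CPM in cultures. CGA and NTS were chosen among genes whose groups did not overlap, as 55.6% of genes tested did not. In INHBE every tumour was also below every culture.

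Secreted antagonists of embryonic signalling were among the genes that fell. CER1, which blocks Nodal, BMP and Wnt ligands, had 0.852, 5.04, 4.4 and 1.62 CPM in tumours, against 135, 144 and 139 CPM in cultures (log2 fold change -5.30 ± 0.31), with a HuH7 share of 62.3%. DKK1, a Wnt co-receptor antagonist, had 1176, 2585, 7140.0 and 1749 CPM in tumours, against 28579, 32452 and 29536 CPM in cultures, with tumour 3 nearest to the cultures. DKK4, of the same family, went the other way with 9.58, 10.6, 16.3 and 11.3 CPM in tumours, against 0.396, 0 and 0.111 CPM in cultures, and NOTUM, a Wnt deacylase and pathway target, had 195, 94.4, 78.96 and 105 CPM in tumours, against 29.3, 32.5 and 31.5 CPM in cultures. The Wnt list had 7 of 18 members called higher and 3 lower; its median of 0.38 turned to -0.39 on total counts alone.
The Notch ligands JAG1 and JAG2 had 115, 147, 142 and 75.8 CPM in tumours, against 829, 857 and 808 CPM in cultures, and 4.26, 5.79, 4.66 and 4.16 CPM in tumours, against 67.4, 66.7 and 71.8 CPM in cultures. The HuH7 share of JAG1 was 36.4%. The Notch list held 2 higher and 4 lower members of 11 (1 and 7 on total counts alone), beside 24.6% higher and 27.4% lower of all genes tested. BMP and TGF-beta signalling had 7 higher and 13 lower of 22, with a median of -0.95, and 4 higher and 7 lower with the GC and length trends removed. INHBB, an activin subunit, had 3.73, 4.78, 4.92 and 0.231 CPM in tumours, against 78.9, 104 and 98.7 CPM in cultures, with a HuH7 share of 59.8%. The BMP-induced inhibitors of differentiation ID1, ID2 and ID3 fell by 2.61, 1.61 and 1.89 on the log2 scale, with no overlap; the HuH7 share of ID1 was 16.4%.

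Immediate early genes and their partners as a list had 6 higher and 7 lower of 24, with a median of -0.02 (3 and 12 on total counts alone). These counts were near the shares over all genes tested, 24.6% higher and 27.4% lower. The 6 higher were DUSP6, DUSP5, SPRY4, SPRY2, JUN and EGR1. DUSP6, a phosphatase of ERK, had 375, 409.7, 432 and 317 CPM in tumours, against 86.7, 87.4 and 97.3 CPM in cultures. DUSP5, its nuclear counterpart, had 99.7, 127, 131 and 127 CPM in tumours, against 18.1, 16.9 and 16.02 CPM in cultures, and SPRY4, an inhibitor of receptor tyrosine kinase signalling, had 174, 273, 304 and 142 CPM in tumours, against 43.01, 50.5 and 45.4 CPM in cultures. Every tumour exceeded every culture in all 3. SPRY2, of the same family as SPRY4, was higher by 1.30, a call lost on total counts alone. JUN was higher by 1.33 with overlapping groups, a call lost on total counts, with the trends removed, without tumour 3 (also without tumours 2 and 3) and without culture 1. EGR1, an immediate early factor, was higher by 0.79, but by -0.19 on total counts alone. FOS had 3.62, 1.01, 1.04 and 2.08 CPM in tumours, against 8.58, 6.95 and 6.01 CPM in cultures. DUSP1, another phosphatase of MAP kinases, was lower, with 17.8, 32.5, 38.1 and 11.1 CPM in tumours, against 84.4, 95.7 and 82.2 CPM in cultures and a HuH7 share of 52.5%.

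Genes of YAP and TGF-beta output fell in 14 of 19 members and rose in none, with a median of -1.66. THBS1, a matricellular protein, had 46.1, 16.1, 4.66 and 20.3 CPM in tumours, against 428, 412 and 409 CPM in cultures (log2 fold change -4.56 ± 0.48, adjusted p = 5.3e-08), with tumour 1 the nearest to the cultures. AMOTL2, a junction protein and YAP target, had 23.6, 17.9, 17.6 and 8.78 CPM in tumours, against 144, 173 and 162 CPM in cultures, with a HuH7 share of 52.8%. AREG, an EGF receptor ligand that is not on this list, had 0.319, 0.504, 2.33 and 0.462 CPM in tumours, against 19.4, 22.1 and 23.04 CPM in cultures. Tumour 3 stood above the other tumours for AREG, and its HuH7 share was 10.1%.
Integrin and keratin genes were also mostly lower, and more actin genes were lower than higher. Over all genes tested 27.4% were called lower. Of 12 integrin subunits 8 were lower and 1 higher, with a median of -1.11, and ITGB1, the common beta chain, had 79.1, 36.5, 8.54 and 52.7 CPM in tumours, against 445, 410.2 and 415 CPM in cultures. All 5 called keratins of 8 tested were lower, among them KRT18 (-1.75), the main simple epithelial keratin, and KRT23, which had 13.95, 12.1, 27.96 and 13.4 CPM in tumours, against 366, 390.2 and 392 CPM in cultures. Of 23 actin and SRF genes 11 were lower and 4 higher, with a median of -0.59. TUBB6, a beta tubulin, had 2.24, 1.51, 0.777 and 2.08 CPM in tumours, against 48.02, 40.9 and 38.6 CPM in cultures, and FLNA, an actin crosslinker, was lower by -2.67. Their HuH7 shares were 60.9% and 12.4%. MYH9, non-muscle myosin heavy chain, was read as higher at 19.8, 23.2, 10.4 and 1.16 CPM in tumours, against 0, 0.273 and 0 CPM in cultures, but its HuH7 share came to 149%, and with that share subtracted the call was lost.

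Matrix genes had 9 higher and 7 lower members of 29, with a median of 0.00 (6 and 9 on total counts alone), beside 24.6% higher and 27.4% lower of all genes tested. IGFBP7, FBN2 and LOXL4 are not members of this list and were also lower. IGFBP7, a secreted protein that binds matrix, had 0, 0, 0 and 0 CPM in tumours, against 32.6, 31.2 and 31.9 CPM in cultures, at least 50.2-fold lower against the floor of 3 reads per tumour. FBN2, fetal fibrillin, had 0.958, 2.52, 2.07 and 0 CPM in tumours, against 65.3, 71.7 and 69.4 CPM in cultures, and LOXL4, a collagen crosslinker, had 1.7, 2.52, 1.81 and 0.693 CPM in tumours, against 142, 131 and 144 CPM in cultures. Their HuH7 shares were 90.3% and 72.9%. COL2A1, the collagen of cartilage, was higher, at 689, 1214, 1619 and 625 CPM in tumours, against 62.01, 63.4 and 64.7 CPM in cultures (log2 fold change 3.90, adjusted p = 3e-08). NID1, a linker of basement membranes, had 1502, 1804, 2794 and 1503 CPM in tumours, against 664, 701 and 680.5 CPM in cultures, a call lost on total counts alone. Outside the list, ATOH8, a basic helix-loop-helix factor, and SLC34A2, a phosphate transporter, fell by 4.59 and 4.43 on the log2 scale, with HuH7 shares of 11.1% and 35.3%.

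Genes of cell division, the ATF4 response and tRNA charging were mostly lower. Of 26 mitosis genes 18 were lower and 1 higher, with a median of -1.02, and CDK1, the kinase that starts mitosis, had 2.98, 0.252, 0 and 0.462 CPM in tumours, against 19.3, 15.3 and 16.8 CPM in cultures; the proliferation marker MKI67 was not called (-0.57). Of 22 ATF4 and amino acid response genes 15 were lower and 2 higher, with a median of -1.70. MTHFD2, of mitochondrial folate metabolism, had 25.9, 18.9, 16.3 and 28.2 CPM in tumours, against 153, 152 and 163 CPM in cultures. CHAC1, which degrades glutathione, had 9.58, 5.04, 3.37 and 6.01 CPM in tumours, against 51.1, 55.6 and 53.2 CPM in cultures. In both the groups were separate. The aminoacyl-tRNA synthetases had 10 of 19 lower and none higher, and 4 lower without tumours 2 and 3.
Nuclear genes of oxidative phosphorylation had 14 of 26 lower and 3 higher with a median of -0.81, but 4 lower without tumours 2 and 3. UQCRC2, a core subunit of complex III, had 0.426, 0, 0 and 0.693 CPM in tumours, against 5.41, 5.73 and 7.01 CPM in cultures. CYC1, of the same complex, was higher by 0.83, but by -0.15 on total counts alone. Glycolysis had 5 of 22 lower and 1 higher, beside 27.4% lower and 24.6% higher of all genes tested. PFKFB3, which makes the activator of phosphofructokinase, had 14.2, 15.1, 9.58 and 16.6 CPM in tumours, against 88.5, 98.3 and 93.7 CPM in cultures with a HuH7 share of 19.8%.

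By number of genes heat shock proteins were mostly lower, with 13 of 18 lower and 2 higher and a median of -1.38. Their summed level was higher in every tumour, at 5348 to 11011 CPM against 4432 to 4611 CPM in cultures. With the GC and length trends removed 4 were lower and none higher. HSP90AA1, the inducible cytosolic HSP90, had 7.67, 0, 0 and 0.231 CPM in tumours, against 40.9, 33.4 and 35.1 CPM in cultures, and tumour 1 alone among tumours was well read. HSPA8, the constitutive HSP70, had 34.7, 4.53, 0.518 and 20.8 CPM in tumours, against 154, 130.1 and 141 CPM in cultures, a call lost with the trends removed and without tumours 2 and 3. HSPA1A, the inducible HSP70, and HSPB1, a small heat shock protein, were called higher by 1.21 and 1.70, and both calls were lost with the trends removed. Of the NRF2 targets 5 of 21 were higher and 4 lower (4 and 8 on total counts alone), beside 24.6% higher and 27.4% lower of all genes tested. HMOX1, heme oxygenase 1, had 325, 620.3, 4784 and 1338 CPM in tumours, against 185, 211 and 190.0 CPM in cultures, lowest in tumour 1 and highest in tumour 3. AKR1C1, a ketosteroid reductase, had 15.8, 35, 67.6 and 48.5 CPM in tumours, against 3.3, 3.14 and 3.23 CPM in cultures.

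The neutrophil-attracting chemokines CXCL5, CXCL6, CXCL8 and CXCL1 fell. CXCL5 had 4.47, 10.6, 15.3 and 4.85 CPM in tumours, against 116, 108 and 112 CPM in cultures (log2 fold change -3.68, adjusted p = 4.6e-09), and CXCL6 had 0.532, 3.27, 4.4 and 2.77 CPM in tumours, against 43.9, 40.6 and 44.6 CPM in cultures. CXCL8 and CXCL1, which bind the same receptors, fell by 4.54 and 3.41 on the log2 scale, with no overlap between groups. The HuH7 shares of CXCL6, CXCL8 and CXCL1 were 13.2%, 12.3% and 21.1%. Of 21 chemokines and NF-kB mediators 11 were lower and 2 higher, with a median of -0.79, and CXCL2 was not called. CXCR4, the receptor of CXCL12, had 2.77, 6.55, 5.44 and 0.231 CPM in tumours, against 36.02, 36.4 and 35.3 CPM in cultures and a HuH7 share of 88.97%. CCR6, the receptor of CCL20, rose, with 122, 116, 137 and 97.6 CPM in tumours, against 6.6, 5.45 and 5.34 CPM in cultures; its amplicon also matches an overlapping transcript.

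**Figure D4:**
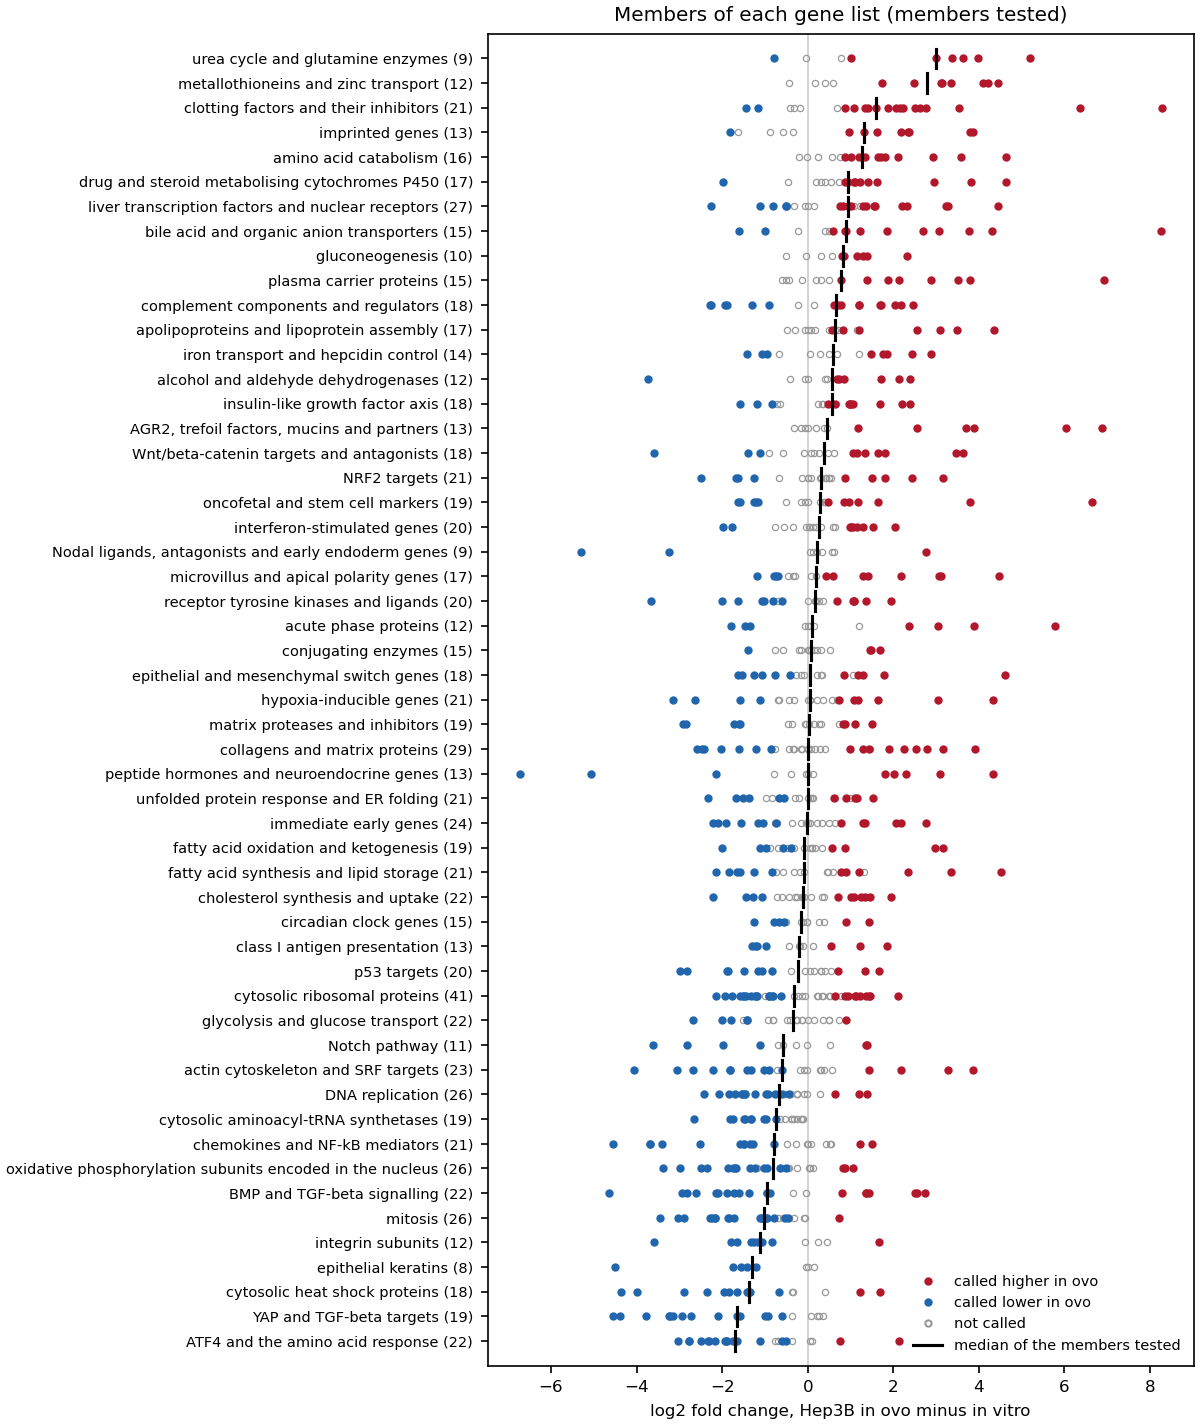
Log2 fold change (Hep3B in ovo minus in vitro) of each tested member of the gene lists, with the number tested in parentheses; filled points are members called higher (red) or lower (blue), open points are not called, and bars are medians. Medians run from 3.00 for the urea cycle and glutamine enzymes to -1.70 for ATF4 and the amino acid response.

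Which of these responses differed from those of the other 3 lines was tested as the Hep3B log2 fold change minus the mean of theirs. The difference was called in 12.6% of genes as higher in Hep3B (1645) and in 13.1% as lower (1715). SERPINC1 had a log2 fold change of 8.27 in Hep3B, against 1.70 in HepG2, -1.33 in HuH7 and 1.81 in PLC/PRF/5, a difference of 7.54 (adjusted p = 3.5e-16). ABCG8, A1BG, AGR2, UROC1, PRODH2 and ITIH3 differed by 6.65, 6.21, 6.08, 5.996, 5.63 and 5.17, and the highest log2 fold change of another line in these 6 genes was 2.21, for UROC1 in HepG2. PGLYRP2 differed by 5.95, although HepG2 rose as well, by 6.47. AKR1C1 had 3.16 in Hep3B and -2.10, -1.93 and -1.87 in HepG2, HuH7 and PLC/PRF/5, opposite in sign. CCR6 differed by 5.25, with HuH7 at -3.23.
In the other direction HOTS had -8.21 in Hep3B, against 0.21 in HepG2, 0.06 in HuH7 and -3.19 in PLC/PRF/5, a difference of -7.23 (adjusted p = 8e-09). CER1 differed by -7.39, with HuH7 at 6.17, and CGA by -7.09. CKM, muscle creatine kinase, had 1.06, 0.755, 0.259 and 1.85 CPM in tumours, against 43.4, 50.05 and 54.4 CPM in cultures and differed by -4.95. FBN2, DKK1, CXCR4, LOXL4 and SLC34A2 differed by -5.10, -4.78, -4.73, -4.53 and -4.52. For IGF2 the difference was -1.07 and not called (adjusted p = 0.22), and its log2 fold change was 2.40, 1.60 and 5.79 in HepG2, HuH7 and PLC/PRF/5. Of the lists, clotting factors held 12 of 21 members with a higher response in Hep3B and none lower, bile acid and anion transporters 11 of 15 and none, and YAP and TGF-beta targets 3 of 19 higher and 12 lower. The median log2 fold change of YAP and TGF-beta targets was -1.66 in Hep3B and -1.38 in HepG2. It was 0.10 in HuH7 and -0.11 in PLC/PRF/5.

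**Figure D5:**
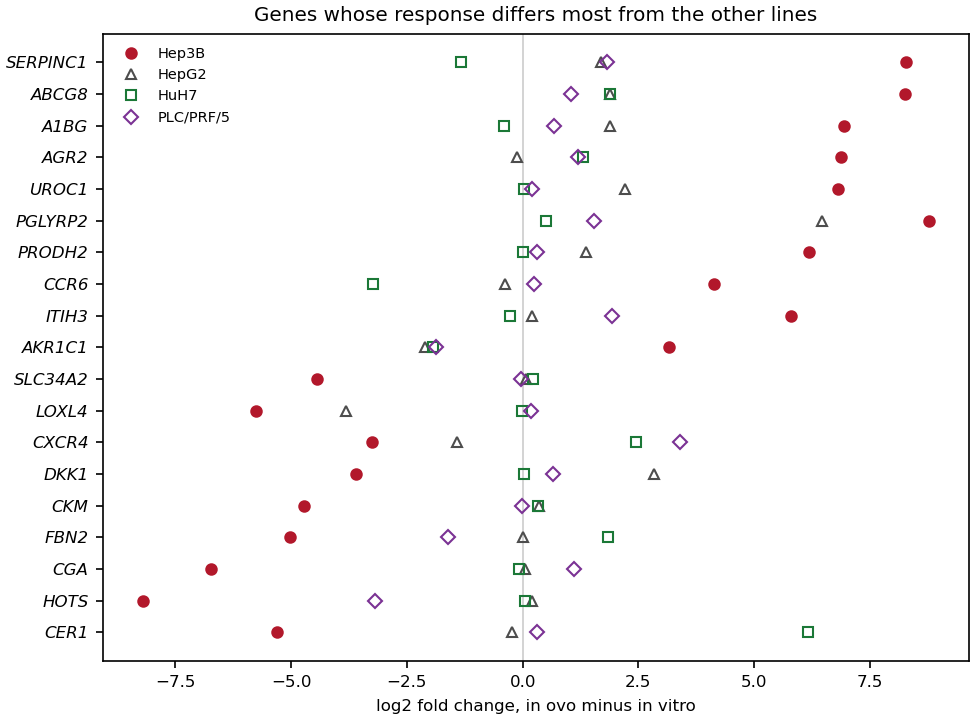
Log2 fold change (in ovo minus in vitro) in Hep3B, HepG2, HuH7 and PLC/PRF/5 for 19 genes among those whose Hep3B response differed most from the mean of the other lines. SERPINC1 stands at 8.27 in Hep3B and HOTS at -8.21.

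Tumour 1, the most deeply sequenced, stood apart from the other tumours for a few genes. COL18A1, the collagen that yields endostatin, had 366, 29.2, 22.8 and 16.4 CPM in tumours, against 251, 279 and 303 CPM in cultures, above every culture in tumour 1 and below in the other tumours and its HuH7 share was 21.3%. AGRN, a basement membrane proteoglycan, had 209.9, 33.5, 11.4 and 11.1 CPM in tumours, against 121, 129 and 143 CPM in cultures, and GDF15, a stress-induced cytokine, had 169, 6.3, 1.55 and 3.93 CPM in tumours, against 64.1, 83.7 and 90.4 CPM in cultures, with the same split. All 3 were called lower (-2.59, -2.03 and -2.83) although their groups overlapped. The COL18A1 call was lost when tumour 2, tumour 3, tumour 4 or any culture was left out, the AGRN call when tumour 3, tumour 4 or any culture was, and the GDF15 call when tumour 2, tumour 3, tumour 4, culture 2 or culture 3 was; edgeR's count test did not call any of them.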

How the data were processed

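Per the labels, 28 libraries were made with the DriverMap targeted amplicon kit (Cellecta) from 500 ng of total RNA, and the submitters' processing notes name the build hg38. Which aligner and counter were used is not given in the sources used here. Deposited columns hold, per amplicon, a signal that the authors had scaled to a sum of 500000 a library, from which CPM and the whole reads behind them were recovered; in the Hep3B libraries at least 99.97% of values lay within 0.01 of a whole read. 1 damaged cell, outside the Hep3B libraries, was filled from its library's total.

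CPM were scaled by TMM (edgeR 4.0.16), and genes passing filterByExpr (at least 10 reads) were fitted with limma 3.58.1, trended variance, on log2(CPM + 1) in 1 model of 8 groups with 20 residual degrees of freedom. Fold changes on this scale understate those of genes with low levels. P-values were two-sided and adjusted by Benjamini-Hochberg over 13100 genes. A count test (edgeR's quasi-likelihood test on recovered reads) called 3344 genes higher and 2936 lower. In simulated data of 13100 genes for this comparison, 200 genes above a minimum culture level were changed. Of these, 98% of genes changed 4-fold upwards and 26% of those changed 2-fold upwards were recovered. Downwards, 88% and 22% were recovered. In the real data 52% of genes were called, so these rates do not carry over to it. Counting intervals are exact 95% intervals, and both they and the floor of 3 reads per library cover counting error only. Amplicon sequences were matched to GENCODE 29, and promoters come from RefSeq. The work used R 4.3.3, DESeq2 1.42.0, Python 3.11.15 and pandas 2.3.3.

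Named genes were fixed key genes, the 12 highest and 12 lowest fold changes averaging at least 10 CPM with groups apart, up to 6 called members per list, and the 10 highest and 10 lowest differences from the other lines, of which not all are reported here. Other list members in the text, such as PROS1, FOXA2, CEBPA, MT1F, MYH9 and AGRN, and the genes singled out for a tumour that stood apart, were named after their values were seen. The members and lists were chosen with earlier results of these data known. The alternatives were other scalings, filters, pseudocounts and tests, removal of amplicon trends, subtraction of a HuH7 or HepG2 share, the replicate block and leaving out libraries.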

Additional observations from a re-analysis of the deposited data

Results flagged for a closer look

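In 14 of the 157 genes named in the report and examined for this, 1 of the 4 Hep3B tumours lay far from the others. The gap to its nearest neighbour exceeded Dixon's 95% critical value for 4 samples as a share of the range of the tumours. Chance flags about 1 in 20 groups. Some of these genes were named because 1 tumour stood apart, so the count cannot be set against that rate. Tumour 1 was the high one for CEBPA (gap 0.901), MUC6 (0.890), HSP90AA1 (0.970), CDK1 (0.845), COL18A1 (0.963), GDF15 (0.972) and AGRN (0.887). Tumour 3 was the low one for PLG (0.903) and F2 (0.868) and the high one for AREG (0.908) and KRT23 (0.883). Tumour 4 was the low one for THPO (0.856), tumour 2 for MT1G (0.854) and tumour 1 for DUSP5 (0.877).

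For 19 genes the Hep3B response differed from the mean response of the other 3 lines by limma's test of the difference. The log2 differences were 7.54 for SERPINC1, 6.65 for ABCG8, 6.21 for A1BG, 6.08 for AGR2, 5.996 for UROC1, 5.95 for PGLYRP2, 5.63 for PRODH2, 5.25 for CCR6, 5.17 for ITIH3 and 5.13 for AKR1C1. They were -7.39 for CER1, -7.23 for HOTS, -7.09 for CGA, -5.10 for FBN2, -4.95 for CKM, -4.78 for DKK1, -4.73 for CXCR4, -4.53 for LOXL4 and -4.52 for SLC34A2. These genes were picked from the 10 highest and 10 lowest differences.

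Signal of HuH7 genes that the Hep3B cultures lack was present in Hep3B tumours 1 to 4 at a median of 0.962%, 1.90%, 0.841% and 0.202% of the HuH7 in ovo level. Genes of HepG2 that the Hep3B cultures lack stood at 1.34%, 1.44%, 0.681% and 0.481% of the HepG2 in ovo level, and those of PLC/PRF/5 at 0.0679%, 0.0841% and 0.0712% in tumours 1 to 3. Where these reads came from was not tested.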

How the results depend on the processing

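Of the count of 3220 genes higher, 3594 lower, and of 1645 genes with a higher and 1715 with a lower response than in the other lines, most alternatives gave a count within 1.5 times. On total counts alone they were 1205 higher, 6820 lower, 733 and 4333 (the response counts on this scale were added after seeing the data), where the scaling itself shifts all genes downwards. With at least 2-fold required they were 2016, 2380 and 1067 for a higher response. A stricter filter, which tests fewer genes, called 2332 lower. edgeR's count test called 1049 and 1068 genes with a different response, and the cause was not tested. Leaving out tumours 2 and 3 together, chosen after seeing the data, called 1933 lower and 1115 with a lower response. With each library left out in turn, 2757 to 3344 were higher, 2795 to 3987 lower, 1237 to 1976 had a higher response and 1243 to 2561 a lower one, and the difference in the IGF2 share was 7.73 to 10.4 percentage points. Among 157 named genes and 4227 alternative values, 4110 kept the call or its absence, 110 lost the call and 1 gained it. In 6 the sign of a called gene changed: NR5A2 to 0.19 and CD74 to -0.23 with the amplicon trends removed, and EGR1 to -0.19, CYC1 to -0.15, PDGFRB to -0.15 and CD74 to -0.0062 on total counts alone. Sign changes in a gene called in neither fit, such as ALB in 2 alternatives, are not among the 6. Of 1482 alternative medians of 57 lists, 254 moved by more than the spread between replicates. With 6085750 to 15086465 reads, a level below 3 reads per library was not detectable.

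The labels do not say whether the replicate numbers pair tumours with cultures, and the main fit used no pairing. Deviations of same-numbered tumours and cultures correlated at 0.0625, 0.0969 and -0.0263. The same cultures correlated with a tumour of another number at up to 0.154, 0.153 and 0.0560. With the replicate block, 3204 genes were higher, 3573 lower, and 1454 and 1368 had a higher or lower response.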
